A study of Homo sapiens with 9 samples.

Results

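To read BMP and TGF-beta signaling in prostate cancer cells given a HER3 ligand, 10 response and receptor genes were followed: ID1, ID2, ID3 and ID4, SMAD6, SMAD7, SKIL and BAMBI, and the receptor genes BMPR2 and TGFBR1. They were chosen by name, with earlier results of these data known, as genes whose products report or carry these signals. They are 10 of the 37351 genes with counts. Cells were LNCaP, a human prostate cancer line grown from a lymph node metastasis, and were held in medium lacking serum and calcium for 6 to 12 h before 15 ng/mL recombinant NRG1 (neuregulin 1, a ligand of HER3) was given. Each of the 3 times of RNA collection (0, 12 and 24 h) had 3 libraries, all labelled as NRG1-treated LNCaP and as biological replicates. Per the study's methods cells were plated in triplicate, and whether replicates came from separate cultures was not stated. Libraries of cells kept for 12 or 24 h with buffer in place of NRG1 were not analysed here, so NRG1 and time in the starvation medium cannot be told apart in any comparison with 0 h. All results come from 1 unmodified cell line, and p-values measure the spread between these 9 libraries only.

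Libraries held 47016302 to 60985825 counts, with 5.02% to 6.09% from mitochondrially encoded genes. The prostate label held in the data, since 9 of 9 prostate epithelial markers averaged at least 1 CPM (each library's counts set to a common total, then scaled between libraries by the trimmed mean of M values, TMM) at each time. Their summed level was 4631 to 4761 CPM at 0 h, 4773 to 4820 CPM at 12 h and 4377 to 4587 CPM at 24 h. Single markers did change. At an edgeR adjusted p of at most 0.05, 3 of the 9 were higher and 4 lower at 12 h, beside 18.7% of all tested genes. At 24 h 2 were higher and 6 lower, beside 21.1%. At each time 2 of the lower ones also passed 1.5-fold. Stromal markers summed to 27.0 to 30.5 CPM at 0 h, 26.2 to 28.3 CPM at 12 h and 27.9 to 28.0 CPM at 24 h, mostly from COL1A1. COL1A2, DCN, PDGFRA and THY1 had at most 10 counts in any library, and COL3A1, LUM, PDGFRB and ACTA2 had 17 to 98. Markers of basal, endothelial and leukocyte cells summed to 13.3 to 14.1 CPM at 0 h, 8.71 to 9.89 CPM at 12 h and 7.14 to 8.08 CPM at 24 h, without overlap and nearly all from VWF, an endothelial gene that fell by 0.58 and 0.83 on the log2 scale (edgeR adjusted p = 6.77e-07 and 3.07e-10). KRT5, TP63, PECAM1, PTPRC and LYZ had at most 5 counts in any library, KRT14 at most 15 and CD68 at most 23. In bulk RNA, fewer cells expressing a gene and less RNA of it per cell cannot be told apart.

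BMPs and TGF-beta bind paired type I and type II receptor kinases, which phosphorylate SMAD transcription factors. SMADs of the BMP branch switch on the ID genes, whose proteins lack a DNA-binding region and hold basic helix-loop-helix (bHLH) factors in inactive pairs. Both branches induce their own brakes, among them the inhibitory SMADs (SMAD6 and SMAD7), the decoy receptor BAMBI and the SMAD co-repressor SKIL, so the RNA of these genes is widely used as a readout of the pathway. In prostate epithelium, TGF-beta is known as a growth inhibitor.

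The promoters of 4 of these genes are shown as examples, because they differ in the letters that SMADs are known to prefer and in how the genes behaved. ID1 and BAMBI were the members that passed a test below, ID3 is the relative of ID1 that did not, and SMAD7 is a widely used SMAD target. Each line gives the 250 bases before the RefSeq start site (GRCh38.p14), read 5′ to 3′ on the strand of the gene, with capitals marking GGCGCC (the core of BMP response elements) or CAGAC (the SMAD box, GTCTG on the other strand). The windows were chr20:31605039-31605288, plus strand (ID1), chr10:28677271-28677520, plus strand (BAMBI), chr1:23559502-23559751, minus strand (ID3), and chr18:48950966-48951215, minus strand (SMAD7).
ID1: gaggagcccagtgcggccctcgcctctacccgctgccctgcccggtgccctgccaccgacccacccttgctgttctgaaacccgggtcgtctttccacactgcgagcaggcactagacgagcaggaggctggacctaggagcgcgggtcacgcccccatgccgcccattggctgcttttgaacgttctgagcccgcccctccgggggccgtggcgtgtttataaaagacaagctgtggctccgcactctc
BAMBI: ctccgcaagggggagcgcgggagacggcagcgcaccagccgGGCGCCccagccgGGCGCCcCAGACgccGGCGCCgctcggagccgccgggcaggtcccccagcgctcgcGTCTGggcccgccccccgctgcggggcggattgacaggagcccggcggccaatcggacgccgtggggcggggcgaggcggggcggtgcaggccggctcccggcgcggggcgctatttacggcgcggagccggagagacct
ID3: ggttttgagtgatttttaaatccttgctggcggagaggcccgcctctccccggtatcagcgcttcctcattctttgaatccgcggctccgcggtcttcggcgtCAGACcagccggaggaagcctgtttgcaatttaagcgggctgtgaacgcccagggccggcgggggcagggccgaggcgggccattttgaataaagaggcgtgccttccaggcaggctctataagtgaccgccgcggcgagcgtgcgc
SMAD7: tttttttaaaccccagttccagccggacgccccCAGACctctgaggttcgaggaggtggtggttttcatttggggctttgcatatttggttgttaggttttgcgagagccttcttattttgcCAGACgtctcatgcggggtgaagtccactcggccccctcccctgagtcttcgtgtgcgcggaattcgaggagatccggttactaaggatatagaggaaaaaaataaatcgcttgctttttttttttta

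Promoters matched for 10 of 10 genes, and motifs were counted on both strands from 250 bases before to 50 bases after the start site. GGCGCC was present in the windows of BAMBI (3 matches, beginning 209, 196 and 181 bases before the start), SKIL and BMPR2 (1 each), against 19.0% of 27305 promoters of the same length. CAGAC was present in 7 of the 10, with 4 matches for BMPR2, 2 each for BAMBI and SMAD7, and 1 each for ID3, ID4, SKIL and TGFBR1, against 45.0% of all promoters. The CAGAC of ID3 overlapped a TGACG (a part of the cyclic AMP response element), which also occurred in the SKIL window and in 25.01% of promoters. Neither SMAD-type motif was found in the windows of ID1, ID2 or SMAD6, which says only that these letters were not there. GGGCGG, the GC box, was found in 7 of the 10 windows and 44.6% of all promoters, and the ETS motif CCGGAAG in none of the 10 and 10.7% of all. Base composition bears on such matches, and the windows ranged from 48.3% GC for SMAD7 to 80.0% for BAMBI, beside a median of 58.3%.

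Before any change over time, the 10 genes differed widely in level. At 0 h, in CPM per kilobase of exon, BAMBI was highest (47.5 ± 0.925, SD, n = 3), followed by BMPR2 (12.2 ± 1.52), TGFBR1 (4.67 ± 0.160) and SKIL (2.91 ± 0.119). ID2 (2.59 ± 0.187) and SMAD7 (2.51 ± 0.139) came next, and their libraries overlapped, so these neighbours did not differ beyond their spread. Below them lay ID3 (1.45 ± 0.0695), SMAD6 (1.14 ± 0.0970), ID1 (0.655 ± 0.170) and ID4 (0.0304 ± 0.00468). Apart from ID2 and SMAD7, no neighbours in this order overlapped at 0 h. The level of BAMBI per kilobase was thus 72.5 times that of ID1, and the gene that changed most was among the least expressed.

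**Figure D1:**
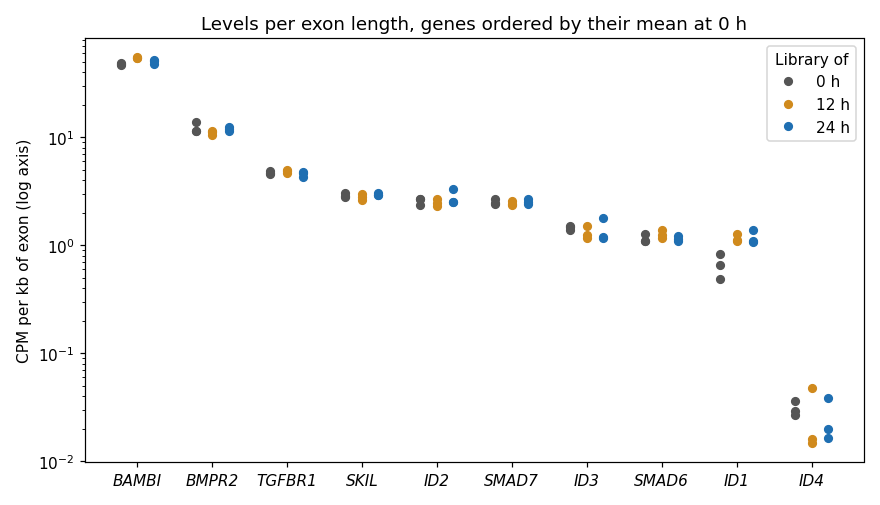
Level of each gene in every library as CPM per kilobase of exon (log axis), ordered by the 0 h mean, with the 0 h, 12 h and 24 h libraries side by side. BAMBI stands highest (47.5 at 0 h) and ID4 lowest (0.0304), and the 0 h libraries of ID1 all lie below its 12 and 24 h libraries.

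ID1 rose at 12 h and stayed at that level at 24 h, while ID2 and ID3 did not pass the test. ID1 (ENSG00000125968.9, chromosome 20, 31605283 to 31606515, GRCh38, plus strand) encodes an inhibitor of bHLH factors that BMPs are known to induce. Its level was 0.806, 1.02 and 0.599 CPM in the 0 h libraries, 1.33, 1.38 and 1.55 CPM at 12 h and 1.32, 1.34 and 1.69 CPM at 24 h. All 6 treated libraries lay above all 3 of the 0 h libraries, and the 12 h and 24 h ranges overlapped. The log2 fold change was 0.81 at 12 h (SE 0.23, edgeR adjusted p = 0.0100) and 0.84 at 24 h (SE 0.23, edgeR adjusted p = 0.00627), which is 1.76-fold (95% interval 1.27 to 2.43) and 1.80-fold (1.30 to 2.48). Both comparisons share the 0 h libraries. Between 24 h and 12 h the log2 difference was 0.032 (95% interval -0.41 to 0.48).

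The ID1 signal rested on few reads. Counts were 50, 59 and 35 at 0 h, 72, 73 and 75 at 12 h and 62, 73 and 88 at 24 h, and the exact 95% counting interval of the lowest library (0.415 to 0.828 CPM, unscaled) did not reach that of any treated library, of which the lowest began at 1.01. Those of the other 0 h libraries (up to 1.08 and 1.31) did reach it, and these intervals cover counting error only. Replicate 3 at 0 h was the lowest of the 9 libraries, and without it the log2 fold change was 0.64 at 12 h (edgeR adjusted p = 0.0691) and 0.68 at 24 h (0.0516), so neither passed. That library also had the highest mitochondrial share (6.09%), and the part of this in the result was not tested. In the 16 other fits run for each comparison, ID1 passed with a log2 fold change of 0.72 to 1.04.

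**Figure D2:**
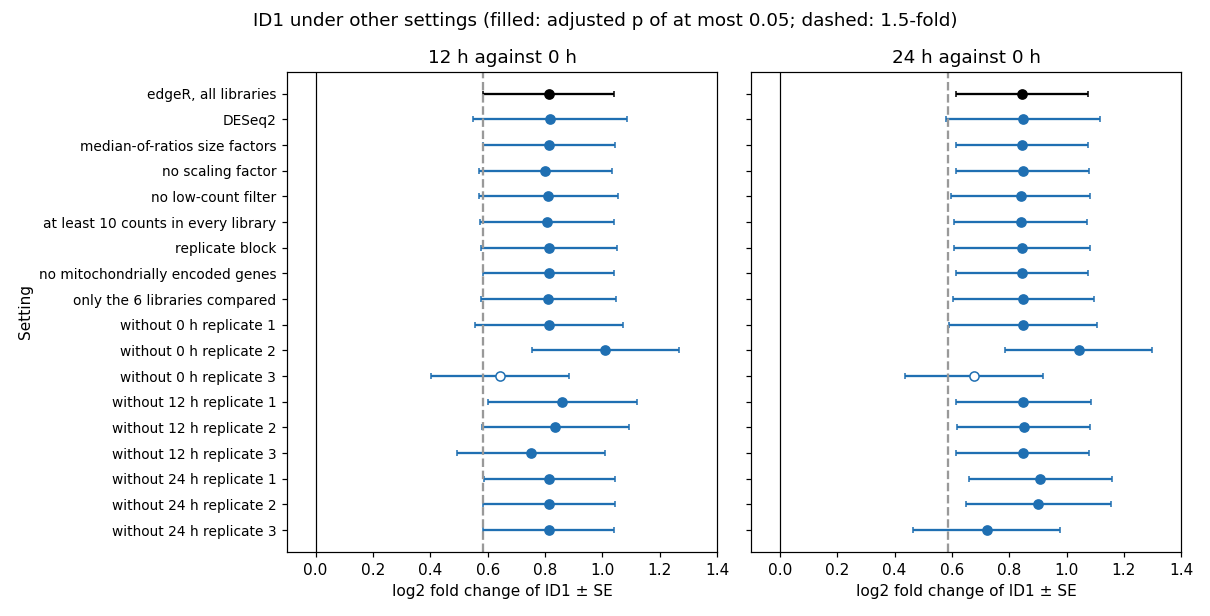
Log2 fold change of ID1 with its standard error at 12 h (left) and 24 h (right) against 0 h, with all libraries and under 17 other fits (filled: adjusted p of at most 0.05; dashed line: 1.5-fold). The lowest value is 0.64, and the open points are the fits without 0 h replicate 3.

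ID2 (ENSG00000115738.10, chromosome 2, 8678845 to 8684461, plus strand), an inhibitor of bHLH factors that also binds retinoblastoma proteins, was the most abundant ID gene. It measured 5.98, 5.97 and 5.26 CPM at 0 h, 5.93, 5.45 and 5.12 CPM at 12 h and 5.58, 5.53 and 7.39 CPM at 24 h, with overlap between all times. Its log2 fold change was -0.060 at 12 h (95% interval -0.28 to 0.16) and 0.11 at 24 h (-0.12 to 0.33). ID2 shares 145 exon bases with ID2-AS1 on the other strand, which had 38.2% as many counts, and whether strand was used in counting was not given, so part of the ID2 value is uncertain. ID2-AS1 itself had log2 fold changes of 0.29 and 0.051 at the later times, and neither passed the test.

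ID3 (ENSG00000117318.9, chromosome 1, 23557926 to 23559501, minus strand), which is often co-expressed with ID1, measured 2.05, 2.21 and 2.24 CPM at 0 h, 1.76, 1.85 and 2.25 CPM at 12 h and 1.77, 1.73 and 2.67 CPM at 24 h. Most treated libraries lay below the 0 h libraries, but the last of each treated group lay above them. The log2 fold change was -0.15 at 12 h (95% interval -0.51 to 0.21) and -0.074 at 24 h (-0.44 to 0.29). ID4 (ENSG00000172201.12, chromosome 6, 19837370 to 19842197, plus strand), a relative of ID1 known from neural and mammary cells, had 7, 8 and 6 counts at 0 h, 10, 3 and 3 at 12 h and 3, 8 and 4 at 24 h. It was the only member under the filter on low counts and was not tested, while each of the 9 others had at least 35 counts in every library.

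The makeup of the ID family shifted while its sum did not clearly move. The 4 genes summed to 8.83 ± 0.574 CPM at 0 h, 8.97 ± 0.233 CPM at 12 h and 9.77 ± 1.78 CPM at 24 h (SD, n = 3 each), with overlapping libraries. ID1 took 9.07% ± 1.80 of ID counts at 0 h, then 15.8% ± 1.38 at 12 h and 14.9% ± 0.555 at 24 h, and the highest 0 h library (10.9%) lay below the lowest treated library (14.3%). The ratio of ID1 to ID3 counts, which no scaling of libraries can alter, was 0.374 ± 0.0984 at 0 h, 0.730 ± 0.0371 at 12 h and 0.719 ± 0.0758 at 24 h. These ratios carry the ID1 difference over and are not further evidence of it.

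The inhibitory SMADs and SKIL held their levels within narrow limits. SMAD6 (ENSG00000137834.15, chromosome 15, 66702236 to 66782849, plus strand), which mainly blocks BMP receptors, measured 9.25, 9.38 and 10.8 CPM at 0 h, 9.95, 11.7 and 10.5 CPM at 12 h and 10.5, 9.41 and 9.65 CPM at 24 h. Its log2 fold change was 0.13 at 12 h (95% interval -0.033 to 0.30) and 0.0055 at 24 h (-0.16 to 0.17). SMAD7 (ENSG00000101665.10, chromosome 18, 48919853 to 48950965, minus strand), which blocks receptors of both branches, measured 10.5, 9.71 and 9.47 CPM at 0 h, 10.04, 9.23 and 9.48 CPM at 12 h and 9.48, 9.83 and 10.7 CPM at 24 h. All 3 times overlapped, and the log2 fold change of SMAD7 was -0.047 at 12 h (95% interval -0.21 to 0.11) and 0.014 at 24 h (-0.15 to 0.17).

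SKIL (ENSG00000136603.14, chromosome 3, 170357678 to 170396835, plus strand), which encodes SnoN, a co-repressor that TGF-beta first degrades and then induces, measured 24.7, 22.8 and 23.4 CPM at 0 h, 21.5, 22.7 and 24.2 CPM at 12 h and 23.6, 23.5 and 24.6 CPM at 24 h. The times overlapped throughout. Its log2 fold change was -0.053 at 12 h (95% interval -0.16 to 0.059) and 0.017 at 24 h (-0.094 to 0.13), so changes of 1.5-fold in either direction lay outside the intervals of SKIL and of both inhibitory SMADs at both times.

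BAMBI rose by a small amount at 12 h. BAMBI (ENSG00000095739.11, chromosome 10, 28677510 to 28682932, plus strand) encodes a receptor look-alike without a kinase that dampens BMP and TGF-beta signals and is itself a target of both. It measured 99.4, 103 and 102 CPM at 0 h, 115, 118 and 116 CPM at 12 h and 109, 112 and 102 CPM at 24 h. Every 12 h library lay above every library of the other times, and 24 h replicate 3 fell among the 0 h libraries. The log2 fold change was 0.19 at 12 h (SE 0.036, edgeR adjusted p = 9.87e-05), or 1.14-fold, and BAMBI passed in 17 of 17 other fits. At 24 h it was 0.084 (SE 0.036, edgeR adjusted p = 0.0993), and without 24 h replicate 3 it was 0.12 (edgeR adjusted p = 0.0216). From 12 h to 24 h the log2 difference was -0.11 (SE 0.036, edgeR adjusted p = 0.0593), which passed the adjusted p threshold in 5 of 17 other fits, among them those without 0 h replicate 1 (edgeR adjusted p = 0.0355) and without 24 h replicate 2 (0.0335).

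The receptor genes among the members were well covered and stayed near their starting level. BMPR2 (ENSG00000204217.15, chromosome 2, 202376327 to 202567751, plus strand), the type II BMP receptor, measured 174, 141 and 141 CPM at 0 h, 139.7, 129.8 and 142 CPM at 12 h and 143, 149 and 156 CPM at 24 h. Replicate 1 at 0 h stood above all others, and the 12 h range lay just below the 24 h range. The log2 fold change of BMPR2 was -0.15 at 12 h (95% interval -0.37 to 0.062), but -0.040 without 0 h replicate 1, and with no filter on low counts it passed at an unchanged size (edgeR adjusted p = 0.0214). It was -0.027 at 24 h (-0.24 to 0.19), but 0.084 without that library. Between 24 h and 12 h it was 0.12 (SE 0.090, edgeR adjusted p = 0.547), and the same difference passed the adjusted p threshold without 0 h replicate 1 (edgeR adjusted p = 0.0190) and in a fit of only the 6 libraries compared (0.0246).

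TGFBR1 (ENSG00000106799.13, chromosome 9, 99104038 to 99154192, plus strand), the type I TGF-beta receptor, measured 38.7, 36.9 and 36.3 CPM at 0 h, 38.6, 37.4 and 40.05 CPM at 12 h and 34.3, 37.4 and 37.8 CPM at 24 h. Its times overlapped, and the log2 fold change was 0.052 at 12 h (95% interval -0.043 to 0.15) and -0.031 at 24 h (-0.13 to 0.065). TGFBR2, the type II TGF-beta receptor, is not a member and was named after its values were seen. It was lower in CPM, at 1.73, 1.53 and 2.14 at 0 h, 2.54, 2.27 and 2.31 at 12 h and 1.85, 2.79 and 1.92 at 24 h. TGFBR2 did not pass at 12 h (0.40, edgeR adjusted p = 0.124) or 24 h (0.29, 0.294). Whether its level bears on the TGF-beta readout was not tested.

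**Figure D3:**
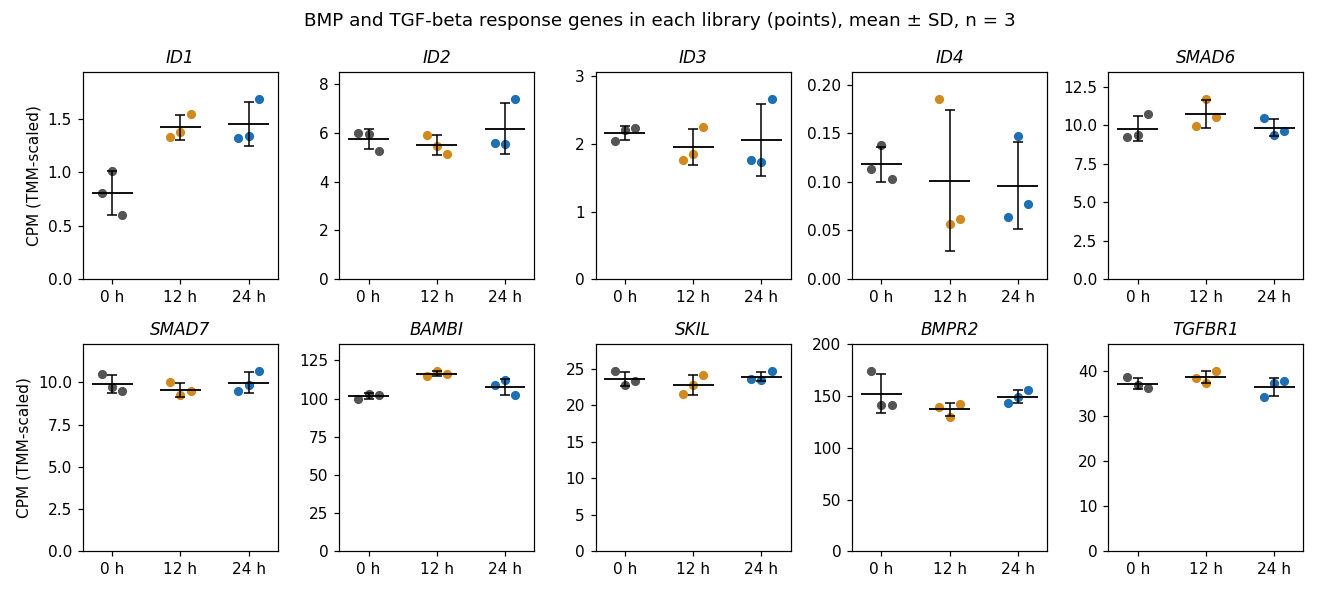
TMM-scaled CPM of the 10 genes in every library (points) at 0, 12 and 24 h, with mean and SD over 3 libraries, on axes that start at 0. ID1 is higher in all 6 treated libraries, BAMBI peaks at 12 h (115 to 118 CPM), and the others overlap between 0 h and each later time.

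Counted together, 1 of the 9 tested members (ID1) passed both the adjusted p threshold of 0.05 and the fold threshold of 1.5 at 12 h, as did 2.37% of all 19250 tested genes (0.992% in the higher direction). With adjusted p alone 2 passed (ID1 and BAMBI, both higher), beside 18.7% of all genes (10.6% higher and 8.16% lower), and the same 2 did not overlap between times, beside 32.8%. At 24 h only ID1 passed, with or without the fold threshold, beside 3.31% and 21.1% of all genes, and only ID1 did not overlap with 0 h, beside 33.5%. The share of members called was thus near or below the background on adjusted p alone. Between 24 h and 12 h, edgeR called 0 of the 9 and DESeq2 0 of the 8 to which it gave an adjusted p (it gave none for ID1), beside 0.452% of all genes by edgeR with both thresholds (0.249% higher and 0.203% lower) and 6.08% on adjusted p alone (3.03% higher and 3.05% lower), and 1 member (BAMBI) had an unadjusted p below 0.05. BAMBI and BMPR2 did not overlap between those times, beside 24.4% of all genes.

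The data bound the changes of the members that were not called. At 12 h the 95% intervals of 7 of 7 such members lay within 1.5-fold, between -0.51 and 0.30 on the log2 scale, and at 24 h those of 8 of 8, between -0.44 and 0.33. Between 24 h and 12 h the intervals of 9 of 9 lay within 1.5-fold, between -0.41 and 0.48. The median log2 fold change of the 9 was -0.047 at 12 h and 0.014 at 24 h, beside medians over all tested genes of -0.0084 and -0.0068. ID1 lay at percentile 98.6 of all log2 fold changes at 12 h and at percentile 98.2 at 24 h.

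**Figure D4:**
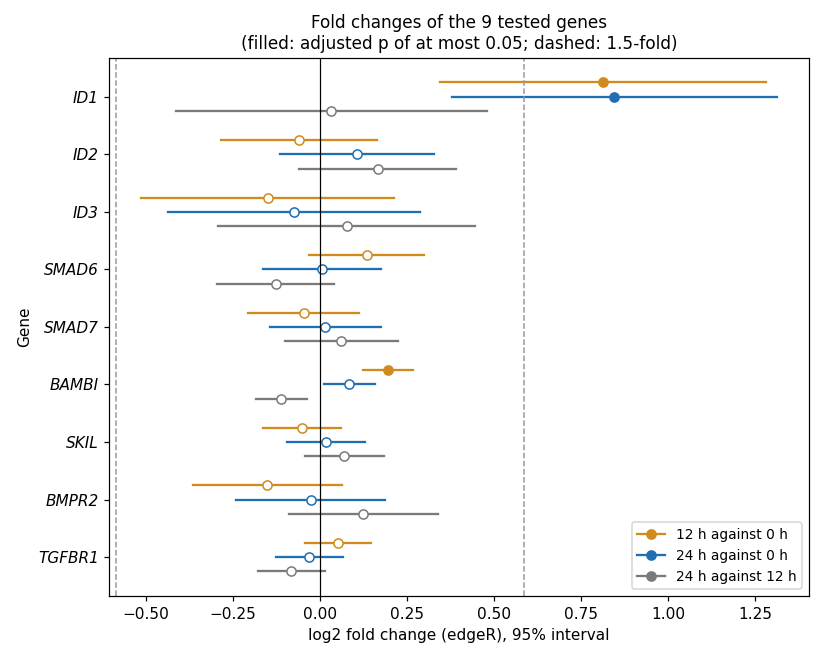
Log2 fold change and 95% interval of the 9 tested genes at 12 h and 24 h, each against 0 h, and between 24 h and 12 h (filled: adjusted p of at most 0.05; dashed: 1.5-fold). ID1 lies near 0.8 at both times against 0 h, BAMBI at 0.19 at 12 h, and the intervals of the other genes stay between the dashed lines.

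Library 24 h replicate 3 stood above the other 8 libraries for ID1, ID2, ID3 and SMAD7. It also had the lowest mitochondrial share (5.02%), and the part of this in the 24 h values was not tested. Without it the log2 fold change at 24 h was -0.046 for ID2 and -0.035 for SMAD7, neither of which passed, and ID1 still passed.

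Genes whose levels followed these members most closely over the 9 libraries are given as a description, among 10086 genes of moderate or high level (10085 for SMAD7), and the libraries of a time share their treatment. For ID1 they were MRPS12 (Pearson r of log2 CPM 0.974), a mitochondrial ribosomal protein, ARPC2 (0.974), an actin-nucleating subunit, and TATDN1 (0.963). For ID2 they were FBXO22 (0.989), SRXN1 (0.918) and EEF1E1 (0.918). ID3 was most like CAPN10 (0.913), PABPN1 (0.887) and AFG3L1P (0.865), and SMAD7 was most like RICTOR (0.989), BDP1 (0.934) and SLK (0.918).

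The rest of the pathway was read from 143 further genes in 8 lists, of which 131 were in the table and 88 were tested. At 12 h 17 of the 88 were higher and 10 lower on adjusted p alone (30.7%, beside 18.7% of all tested genes), and 8 were higher and 0 lower with both thresholds (9.09%, beside 2.37%). At 24 h 21 were higher and 9 lower (34.1%, beside 21.1%), and 8 were higher and 2 lower with both (11.4%, beside 3.31%). Between 24 h and 12 h 3 were higher and 5 lower (9.09%, beside 6.08%), and 0 were higher and 2 lower with both (2.27%, beside 0.452%). Because the lists were written with earlier results of these data known, a share above that of all genes is not a test of the pathway. The lists are described below by their counts only.

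Among ligands, 15 of 28 in the table were tested, and 4 were higher and 0 lower at each time on adjusted p, with median log2 fold changes of 0.029 (12 h) and 0.12 (24 h). BMP6, a ligand of the BMP branch also known for iron control, rose, with 0.468, 0.604 and 0.514 CPM at 0 h, 1.46, 1.51 and 1.42 CPM at 12 h and 1.32, 1.31 and 1.65 CPM at 24 h. All later libraries lay above 0 h, and 12 h and 24 h overlapped. The log2 fold change of BMP6 was 1.47 at 12 h (SE 0.24, edgeR adjusted p = 1.39e-05) and 1.43 at 24 h (SE 0.24, edgeR adjusted p = 1.78e-05). BMP6 shares 212 exon bases with TXNDC5 on the other strand, which had 10199 counts to 541 for BMP6 and log2 fold changes of -0.19 (12 h) and -0.016 (24 h).

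BMP7, another BMP ligand, had 21, 12 and 25 counts at 0 h, 41, 41 and 29 at 12 h and 30, 46 and 64 at 24 h, so that the times did not overlap with 0 h. Its log2 fold change was 1.13 at 12 h (edgeR adjusted p = 0.0147) and 1.48 at 24 h (edgeR adjusted p = 0.000899). The 12 h call was lost without 0 h replicate 2 (edgeR adjusted p = 0.0816) and without 12 h replicate 1 or 2 (0.0545 for both). TGFB1, the main TGF-beta, had 14, 4 and 11 counts at 0 h, 33, 27 and 28 at 12 h and 16, 15 and 4 at 24 h, and its log2 fold change was 1.79 at 12 h (edgeR adjusted p = 0.00576) and 0.50 at 24 h (edgeR adjusted p = 0.578). Reads of TGFB1 are uncertain, since HNRNPUL1 on the other strand shares 215 exon bases and had 84837 counts to 152, at a log2 fold change of 0.00046 at 12 h. GDF15, a distant and very abundant family member linked to cell stress, rose from a 0 h mean of 2135 ± 56.6 CPM to 2607 ± 68.0 CPM at 12 h and 2575 ± 30.7 CPM at 24 h (SD, n = 3 each), log2 fold changes of 0.29 and 0.27. GDF11, the next most abundant ligand, had log2 fold changes of 0.029 and 0.036, which did not pass.

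Among receptors, SMADs and their regulators, no tested gene of these 3 lists passed 1.5-fold with adjusted p at any time. Of 12 further receptors and co-receptors, 1 was higher and 1 lower at each time against 0 h on adjusted p alone. These were BMPR1B at 12 h (0.32) and ACVR1 at 24 h (0.21), type I receptors that were higher, and BMPR1A, a type I BMP receptor that was lower at both (-0.14 and -0.16), all named after their values were seen. The 12 h calls of BMPR1A and BMPR1B were lost without 0 h replicate 1 or 2 or any single 12 h replicate (edgeR adjusted p 0.0520 to 0.143), and also with DESeq2 (adjusted p = 0.0561 and 0.0516) and with no filter on low counts (0.0703 and 0.0574), so that each passed in 10 of 17 other fits. Lost too were the 24 h call of BMPR1A without 0 h replicate 2 (0.0717) or 24 h replicate 1 (0.0507), and that of ACVR1 without 24 h replicate 3 (0.0813). ACVR1B, at 75.4 ± 3.55 CPM at 0 h the most abundant of them, had log2 fold changes of -0.061 and -0.10, and the co-receptor RGMB 0.0026 and 0.060, none of which passed. In other fits ACVR1B at 24 h passed without 0 h replicate 2 (-0.14, edgeR adjusted p = 0.0144) and with at least 10 counts in every library (0.0416).

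Of the 6 receptor-regulated and common SMADs, SMAD9 was higher at 12 h (0.18, edgeR adjusted p = 0.0477) and SMAD1 at 24 h (0.29, edgeR adjusted p = 5.16e-06), both transducers of the BMP branch and named after their values were seen. SMAD1 passed in every other fit, while the SMAD9 call was lost without 0 h replicate 2 or 3, any single 12 h replicate or 24 h replicate 3 (edgeR adjusted p 0.0578 to 0.252). It passed in 7 of 17 other fits, and was also lost with DESeq2 (adjusted p = 0.0600), median-of-ratios factors (0.0512), no scaling (0.0787) and at least 10 counts in every library (0.0555). The most abundant, SMAD5 (97.9 ± 2.96 CPM at 0 h) of the BMP branch and SMAD2 (93.4 ± 1.61 CPM) of the TGF-beta branch, did not pass at either time, with log2 fold changes of 0.017 and 0.053 for SMAD5 and 0.013 and -0.038 for SMAD2. Of 20 intracellular inhibitors and co-factors, 5 were higher and 7 lower at 12 h and 3 higher and 4 lower at 24 h. At those times 18.7% and 21.1% of all tested genes passed on adjusted p alone. The largest called changes of this list were falls of NEDD4L (-0.25 at 12 h, edgeR adjusted p = 5.84e-07, and -0.34 at 24 h, 8.30e-10) and TGIF1 (-0.25 at both, 0.000313 and 0.000216). Both were named after their values were seen. STRAP, a receptor-binding inhibitor, had the highest level (249 ± 5.19 CPM at 0 h) and rose by 0.14 on the log2 scale at 12 h (edgeR adjusted p = 0.00144). At 24 h STRAP had 0.092 (edgeR adjusted p = 0.0336), which passed in 12 of 17 other fits and was lost without 0 h replicate 1 or 3 or 24 h replicate 1 or 2 (0.0663 to 0.152). FKBP1A, which holds type I receptors inactive, had 0.043 at 12 h and -0.065 at 24 h on the log2 scale, and neither passed.

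Of 10 extracellular antagonists and ligand-binding proteins, 0 were higher and 1 lower at 12 h and 3 were higher and 2 lower at 24 h by edgeR, with medians of -0.059 and 0.082. LTBP3, which anchors latent TGF-beta in the matrix, had 108 ± 2.58 CPM at 0 h, 104 ± 5.56 CPM at 12 h and 121 ± 3.52 CPM at 24 h, where the log2 fold change was 0.17 (edgeR adjusted p = 0.000713). TWSG1, a BMP-binding protein, had 0.11 at 24 h (edgeR adjusted p = 0.0419), which passed in 10 of 17 other fits, and was lost without 0 h replicate 2 or 3 or without 24 h replicate 2 or 3 (0.114 to 0.181). BGN, a matrix proteoglycan, had 9, 4 and 15 counts at 0 h and 27, 12 and 24 at 24 h, which overlapped. Its 24 h log2 fold change of 1.39 (edgeR adjusted p = 0.0475) passed in 6 of 15 other fits, and did not pass without 0 h replicate 1 or 2, any single 12 h replicate, or 24 h replicate 1 or 3 (0.0528 to 0.225).

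Among TGF-beta and SMAD3 targets, 11 of 18 were tested, and 4 were higher and 0 lower at 12 h and 5 higher and 1 lower at 24 h on adjusted p, with medians of 0.15 and 0.14. LOX, which cross-links collagen, rose, with 5.30, 4.97 and 5.27 CPM at 0 h, 13.2, 13.6 and 14.1 CPM at 12 h and 15.5, 15.6 and 14.4 CPM at 24 h, with no overlap between any of the times. LOX had a log2 fold change of 1.39 (12 h, SE 0.078, edgeR adjusted p = 2.84e-16) and 1.55 (24 h, SE 0.077, edgeR adjusted p = 5.80e-18), and SRFBP1, which overlaps it on the other strand, had 0.23 and 0.28. SPHK1, which makes sphingosine 1-phosphate, rose from a mean of 1.90 ± 0.153 CPM to 3.17 ± 0.238 CPM at 12 h and 3.73 ± 0.105 CPM at 24 h (SD, n = 3 each). Its log2 fold changes were 0.74 (edgeR adjusted p = 0.000188) and 0.97 (edgeR adjusted p = 1.61e-06), and PRPSAP1, which overlaps it on the other strand, had 0.047 and -0.0034.

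TIMP1, an inhibitor of matrix proteases, had 0, 3 and 0 counts at 0 h, 13, 22 and 27 at 12 h and 2, 10 and 8 at 24 h. The ratio of pooled counts per total to 0 h was 23.6 (exact 95% counting interval 7.70 to 117) at 12 h and 7.76 (2.30 to 40.8) at 24 h. These intervals pool the 3 libraries of a time and leave out the spread between them. The 24 h libraries overlapped 0 h, with 0.0426 CPM in 24 h replicate 1 and 0.0517 CPM in 0 h replicate 2. TIMP1 is tested below with that spread. It passed at 12 h (edgeR adjusted p = 9.24e-05) and at 24 h (edgeR adjusted p = 0.0298), and the 24 h call was lost without 0 h replicate 1 or 3 or without 24 h replicate 2 or 3 (edgeR adjusted p 0.0818 to 0.136). CDKN1C, the cell cycle inhibitor p57, measured 4.50, 3.98 and 3.39 CPM at 0 h, 4.20, 3.06 and 3.86 CPM at 12 h and 2.49, 2.44 and 2.36 CPM at 24 h. The 24 h libraries lay below all others, with a log2 fold change of -0.70 against 0 h (SE 0.14, edgeR adjusted p = 0.000258).

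FN1, a matrix glycoprotein and the most abundant gene of this list (201 ± 16.6 CPM at 0 h), at 24 h had a log2 fold change of 0.37 (edgeR adjusted p = 0.0417), which passed in 9 of 17 other fits and did not pass without 0 h replicate 2 or 3, 12 h replicate 1 or any single 24 h replicate (0.0713 to 0.126). At 12 h it had 0.21 (edgeR adjusted p = 0.228), and passed only without 12 h replicate 2 (0.31, edgeR adjusted p = 0.000375). BHLHE40, a clock-linked repressor, had 94.5 ± 1.56 CPM at 0 h, 122 ± 4.27 CPM at 12 h and 104 ± 6.57 CPM at 24 h, log2 fold changes of 0.37 (edgeR adjusted p = 4.38e-09) and 0.14 (edgeR adjusted p = 0.0107). The 24 h call of BHLHE40 was lost without 24 h replicate 1 (edgeR adjusted p = 0.1001) or 2 (0.0713). LOX, TIMP1, BGN and FN1 are also known from fibroblasts, and of 5 tested stromal markers COL3A1 passed both thresholds, with 0.98 and 1.32 on the log2 scale at 12 and 24 h, from at most 80 counts in a library. Its 12 h call was lost without 0 h replicate 2 (0.68, edgeR adjusted p = 0.0822). Over the 5 tested stromal markers 1 was higher and 0 lower at 12 h (COL3A1), and 2 were higher and 0 lower at 24 h (COL3A1 and LUM) by edgeR's adjusted p, with medians of 0.23 and 0.38 on the log2 scale. LUM had 0.56 at 24 h (edgeR adjusted p = 0.0479), which passed in 3 of 17 other fits and in none that left out a library (0.0510 to 0.166). COL3A1, LUM and VWF were named after their values were seen. Among the other stromal markers, COL1A2 and DCN had at most 5 counts in any library, while PDGFRB had 35 to 57, LUM 57 to 88 and ACTA2 59 to 98. The summed stromal levels given above overlapped between times, but they are mostly COL1A1 and so cannot show a change in the less abundant markers. The labels name only LNCaP, a cultured line, as the source of the RNA, and the origin of RNA of these stromal markers was not tested. COL1A1 and ACTA2 stand in both the stromal list and this one.

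Among BMP and SMAD1/5 targets other than the members, 7 of 10 were tested, with medians of 0.074 at 12 h and 0.17 at 24 h. RUNX2, a bone transcription factor, rose from 2.53 ± 0.235 CPM to 4.01 ± 0.372 CPM at 12 h (log2 fold change 0.67, SE 0.13, edgeR adjusted p = 0.000309) and stood at 3.28 ± 0.302 CPM at 24 h. Its 24 h log2 fold change of 0.38 (edgeR adjusted p = 0.0457) passed in 8 of 17 other fits, and did not pass without 0 h replicate 1 or 2, 12 h replicate 1 or 3, or 24 h replicate 1 or 3 (0.0514 to 0.189). HEY1, a repressor that both BMP and Notch signals are known to induce, had 20, 20 and 11 counts at 0 h, 25, 34 and 24 at 12 h and 41, 40 and 42 at 24 h. It passed at 24 h with a log2 fold change of 1.49 (SE 0.34, edgeR adjusted p = 0.00123), and at 12 h had 0.90 (edgeR adjusted p = 0.0734), which passed only with at least 10 counts in every library (0.89, edgeR adjusted p = 0.0445). The most abundant of these genes, TBX3, had -0.11 at 12 h (edgeR adjusted p = 0.0168), a call lost without 0 h replicate 1 (0.127) or 12 h replicate 2 (0.0923) or 3 (0.0549), and -0.0046 at 24 h. MSX1 had 0.060 and 0.17, neither of which passed.

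The bHLH factors that ID proteins bind or resemble moved in both directions. TCF3, which encodes the E proteins E12 and E47, stayed at 127 ± 1.28 CPM at 0 h, 123 ± 3.66 CPM at 12 h and 128 ± 5.17 CPM at 24 h, and its log2 fold changes (-0.044 and 0.0071) did not pass. TCF12, another E protein, had 0.048 at 12 h and 0.11 at 24 h (edgeR adjusted p = 0.0463), and the latter passed in 8 of 17 other fits, not without 0 h replicate 2 or 3, 12 h replicate 3 or 24 h replicate 1 or 2 (0.0532 to 0.288). HES1, a repressor best known as a Notch target, rose, with 1.23, 1.26 and 1.04 CPM at 0 h, 3.30, 3.12 and 2.85 CPM at 12 h and 3.62, 3.18 and 3.57 CPM at 24 h. The later times overlapped each other and lay above 0 h. For HES1 the log2 fold change was 1.39 at 12 h (SE 0.16, edgeR adjusted p = 2.87e-08) and 1.55 at 24 h (SE 0.16, edgeR adjusted p = 1.45e-09).

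MYOD1, a muscle bHLH factor that ID1 is known to restrain, measured 1.64, 1.79 and 1.51 CPM at 0 h, 1.80, 1.78 and 1.71 CPM at 12 h and 0.703, 0.754 and 0.384 CPM at 24 h. It fell by 1.42 on the log2 scale at 24 h (SE 0.23, edgeR adjusted p = 1.29e-05), and at 12 h its log2 fold change was 0.097 (edgeR adjusted p = 0.812). The 24 h libraries lay below all others. Over the 7 tested bHLH genes the median log2 fold change was 0.048 at 12 h and 0.10 at 24 h, with 1 higher and 0 lower at 12 h and 2 higher and 1 lower at 24 h on adjusted p.

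**Figure D5:**
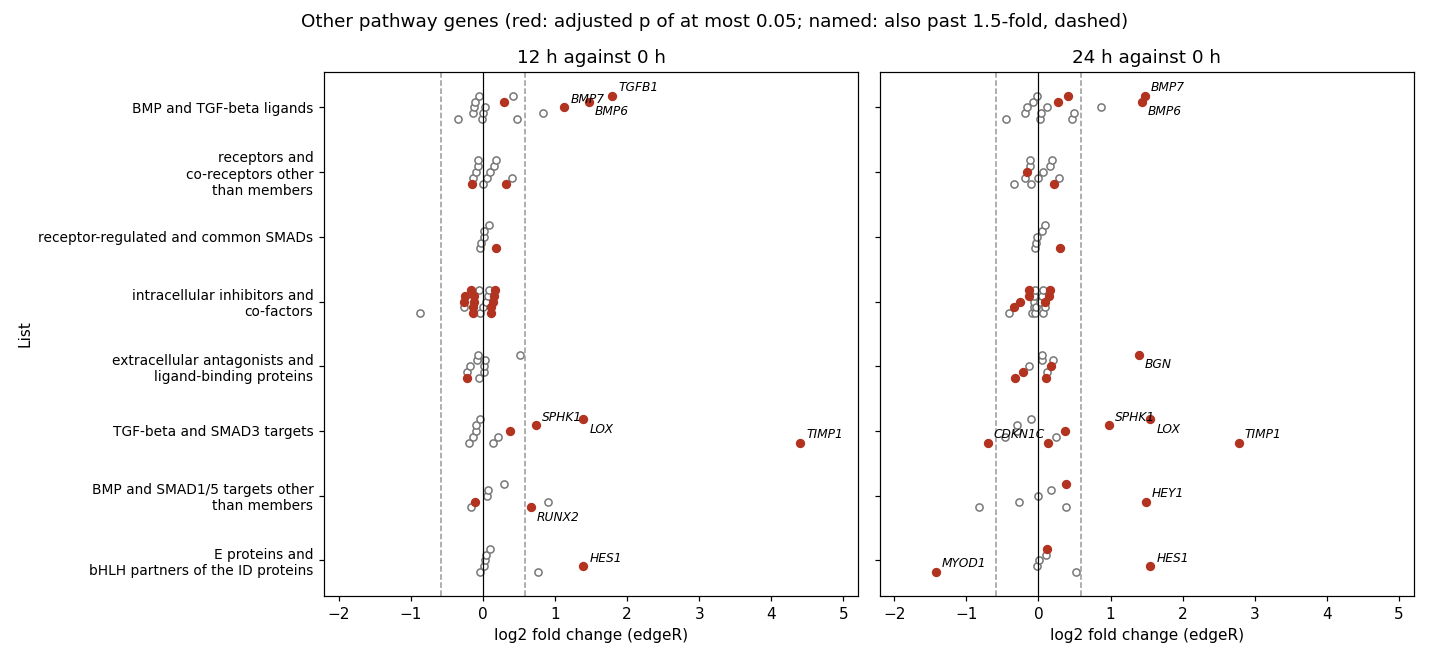
Log2 fold change of the 88 tested pathway genes by list at 12 h (left) and 24 h (right) against 0 h (red: adjusted p of at most 0.05; named: also past 1.5-fold). The 8 named genes at 12 h all lie to the right, and at 24 h CDKN1C and MYOD1 lie to the left of 8 named genes that lie to the right. TIMP1 rests on 3 counts at 0 h, so its plotted value depends on the fit.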

How the data were processed

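Per the labels and the study's methods, the authors trimmed reads with Cutadapt, aligned them to GRCh38.p13 by STAR and assigned them to genes by featureCounts. The authors deposited whole-number read counts, without normalization or pooling, in 1 column per library. The strand setting and the treatment of reads mapping to several places were not stated. The methods state that 1 LNCaP library at time 0 was left out, without naming its treatment, while the study's legends give 3 libraries at each time for NRG1-treated LNCaP, as analysed here. The table held 14 further columns without values, which were not used.

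Groups came from sample titles. Genes were kept with filterByExpr (19250 of 37351), libraries were scaled by TMM, and all 9 libraries were fitted in edgeR 4.0.16 (R 4.3.3) with robust quasi-likelihood F tests and Benjamini-Hochberg adjustment over all tested genes. The thresholds (adjusted p of at most 0.05, 1.5-fold) are the study's. Standard errors and intervals come from the F statistic and its degrees of freedom. DESeq2 1.42.0 was an alternative, with median-of-ratios factors, no scaling, other count filters, no mitochondrial genes, only the 6 libraries compared, a replicate block, other fold rules, glmTreat and each library left out. The steps were tested on simulated data. No pair of libraries agreed within sampling noise (chi-square per degree of freedom 3.06 to 8.34 within groups). The exact counting intervals cover counting error only, and use of molecular identifiers was not stated.

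Exon lengths came from a later GENCODE release than the authors used, promoters from RefSeq (GRCh38.p14). The members and lists were chosen with earlier results of these data known, and the lists were written from general knowledge. Named genes are the members, listed genes past both thresholds in any comparison, the top 2 of each list by level at 0 h, and the 3 genes most like ID1, ID2, ID3 and SMAD7 at a mean log2 CPM no lower than 3. Others are said to have been named after their values were seen, or are markers and overlapping genes. The labels gave no batch.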

Additional observations from a re-analysis of the deposited data

Results flagged for a closer look

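By the edgeR test of 24 h against 12 h, 6 of 45 named genes tested differed, beside 6.08% of all tested genes on adjusted p alone. None of the 6 was one of the BMP and TGF-beta response genes. The 45 include genes named because they passed a call or after their values were seen, so the 2 shares are not alike. They leave out TGFBR2, NEDD4L, TGIF1, INHBE and FSTL3. Of these, INHBE, a ligand (0.52, edgeR adjusted p = 0.000830), and FSTL3, an extracellular antagonist (-0.25, 0.0101), also passed, and both were named after their values were seen. MYOD1 was lower at 24 h than at 12 h by a log2 fold change of -1.52 (SE 0.23, edgeR adjusted p = 2.60e-05). CDKN1C had -0.61 (SE 0.14, edgeR adjusted p = 0.00619), and without 12 h replicate 1 it did not pass (-0.51, edgeR adjusted p = 0.0756). BHLHE40 had -0.24 (SE 0.039, edgeR adjusted p = 9.87e-05). FKBP1A had -0.11 (SE 0.031, edgeR adjusted p = 0.0299), which did not pass without 12 h replicate 2 or 3 or without any single 24 h replicate (0.0702 to 0.146). LTBP3 was higher at 24 h, by 0.23 (SE 0.038, edgeR adjusted p = 0.000105). SMAD1, named after its values were seen, was also higher at 24 h, by 0.21 (SE 0.045, edgeR adjusted p = 0.00267).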

How the results depend on the processing

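The limits of these data are the 3 libraries per time, the lack of a time-matched buffer control, and low counts for ID1, ID4, BMP7, TGFB1, BGN, TIMP1 and HEY1. Members called (1 at 12 h, 1 at 24 h) numbered 0 to 1 at both times when single libraries were left out, 0 at both with a fold of at least 2 or with glmTreat against 1.5-fold, and 2 at 12 h with no fold threshold. Pathway genes called (8, 10 and 2 at 12 h, 24 h and 24 h against 12 h) became 27, 30 and 8 with no fold threshold and 4, 4 and 0 with glmTreat. For 24 h against 12 h they numbered 1 with a fold of at least 2, 4 with only the 6 libraries compared and 1 to 3 with single libraries left out, the lowest without 12 h replicate 1 or 3. DESeq2 called 5 at 12 h, giving no adjusted p for BMP7, TGFB1 and TIMP1. Over all genes, 457, 638 and 87 calls became 284 at 12 h and 51 for 24 h against 12 h with DESeq2, 3605, 4065 and 1171 with no fold threshold, 179, 266 and 34 with a fold of at least 2, and 81, 153 and 5 with glmTreat. The last comparison gave 55 calls without 12 h replicate 2 and 100.0 without 0 h replicate 1.

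Log2 fold changes near 0 changed sign with single libraries left out, none of them a call. At 12 h the ranges were -0.079 to 0.0034 for SMAD7, -0.19 to 0.031 for CDKN1C, -0.016 to 0.077 for GDF11, -0.039 to 0.039 for RGMB and -0.0087 to 0.057 for TWSG1. RGMB also had -0.0079 with no scaling and -0.0027 with at least 10 counts in every library. At 24 h they were -0.046 to 0.18 for ID2, -0.31 to 0.042 for ID3, -0.037 to 0.081 for SMAD6, -0.035 to 0.064 for SMAD7, -0.0070 to 0.054 for SKIL, -0.077 to 0.084 for BMPR2, -0.056 to 0.014 for TGFBR1, -0.0071 to 0.083 for GDF11, -0.018 to 0.026 for TBX3 and -0.014 to 0.042 for TCF3. For 24 h against 12 h they were -0.092 to 0.096 for ID1, -0.16 to 0.19 for ID3, -0.16 to 0.019 for BMP6 and -0.020 to 0.040 for GDF11. The cause was not tested.

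Replicate numbers showed no sign of pairing the samples. Deviations of same-numbered libraries correlated at -0.037 to 0.029, and those of differently numbered libraries at -0.060 to 0.055. The labels do not say whether same-numbered libraries were handled together, and these correlations cannot settle it. With the replicate block, 448, 621 and 92 genes were called, the members called stayed at 1, 1 and 0, and BAMBI for 24 h against 12 h had -0.11 (edgeR adjusted p = 0.0460).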
